A study of Mus musculus with 12 samples.

Results

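Transcript levels of 10 genes for positional transcription factors were followed in mouse embryonic fibroblasts (MEFs) that carried the genes for the transcription factors TFEB and TFE3 or had both targeted, with and without DNA damage. The genes were chosen by name from the 24421 in the count table and comprised the T-box genes Tbx2, Tbx3, Tbx4, Tbx5, Tbx15 and Tbx18, the homeobox genes Pitx1 and Prrx1, and the TALE homeobox genes Meis1 and Meis2. All 10 were among the 15220 genes that passed the filter on low counts. T-box and homeobox proteins bind DNA and control which genes a cell of the early embryo uses according to its place in the body, and in the limb bud they separate fore from hind and near from far. Tbx5 acts in the forelimb bud, Pitx1 and its target Tbx4 act in the hindlimb bud, and MEIS proteins mark the part of the limb nearest to the trunk. Cultured fibroblasts are known to keep part of the expression pattern of their site of origin.

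Each of 4 groups held 3 libraries. Null MEFs, as the sample labels name the control genotype, taken here as unedited, and TFEB/TFE3 DKO MEFs, in which both genes had been targeted with CRISPR, were each left as controls or exposed to 100 µM etoposide for 8 hr. Etoposide is a topoisomerase II poison, and the stalled enzyme leaves breaks in the DNA. The labels describe the control cells as untreated, whereas the study's methods describe a DMSO vehicle. The study's methods list the wild-type MEFs as a line from a repository, grown in high-glucose medium with serum. They do not name the medium of the DKO MEFs. According to the paper its MEFs were immortalized with SV40, and this can alter how stable p53 is. Another line of the methods has both WT and DKO cells made by CRISPR, so whether Null cells passed through editing steps is not clear. The number of edited clones is not given in the sources used here, so an effect of the genotype and a difference between cell lines cannot be told apart. Nothing in the labels says that replicates came from separate cultures, so p-values measure the spread between these libraries, which may be technical.

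Library depth lay between 45577023 and 104120871 counts on genes. Levels are given in CPM (counts scaled to a common library total, here after TMM scaling), and every ± on a level or share is the SD over 3 libraries, while every ± on a log2 change is its SE. Tfeb transcripts were at 40.1 CPM in Null and 5.12 CPM in DKO control MEFs, and at 10.7 and 1.91 CPM after etoposide. Tfe3 transcripts were at 113 and 92.7 CPM in controls and at 68.7 and 68.5 CPM after etoposide. An edit that stops a protein need not remove its transcript. Of 12 fibroblast markers, 10 had a mean of at least 1 CPM in each group. Lum fell short in every group, Dcn in Null MEFs and Thy1 in DKO MEFs. Thy1, a surface glycoprotein of many fibroblasts, had 366, 267 and 261 counts in Null control libraries and 4, 3 and 1 in DKO control libraries. Endothelial markers summed to at most 2.98 CPM and macrophage markers to at most 1.76 CPM in any library. Epithelial markers summed to between 15.8 and 37.8 CPM, and neural markers to between 217 and 422 CPM. Most of the epithelial sum came from Krt19, at means of 13.7 to 31.3 CPM, while Epcam and Esrp1 were under 1 CPM in every group. Most of the neural sum came from Nes, at means of 131 to 317 CPM, followed by Map2 and Tubb3. Sox10, Gfap and Rbfox3 were under 1 CPM in every group. These are bulk measurements, in which fewer cells of a type and less RNA per cell cannot be told apart.

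DKO and Null MEFs differed in nearly all of the 10 genes, in both directions and over a wide range of sizes. Without etoposide, Tbx3 and Tbx5 were nearly silent in DKO MEFs, Tbx4 and Pitx1 were several-fold higher there, Meis1 and Meis2 were lower, and Tbx15, Tbx18 and Prrx1 were higher by smaller amounts. In number, 9 of the 10 genes differed between the lines by edgeR's quasi-likelihood test (threshold 0.05 after Benjamini-Hochberg adjustment over all genes tested), with 5 higher and 4 lower in DKO MEFs. Across all genes tested the same threshold called 67.4%, with 33.4% higher and 34.1% lower. After etoposide all 10 differed, 5 in each direction, against 72% of all genes tested, with 36.9% higher and 35.2% lower. The median log2 difference of the 10 genes was 0.20 without etoposide and -0.40 after it, while the medians over all genes tested were -0.02 and -0.0039.

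**Figure D1:**
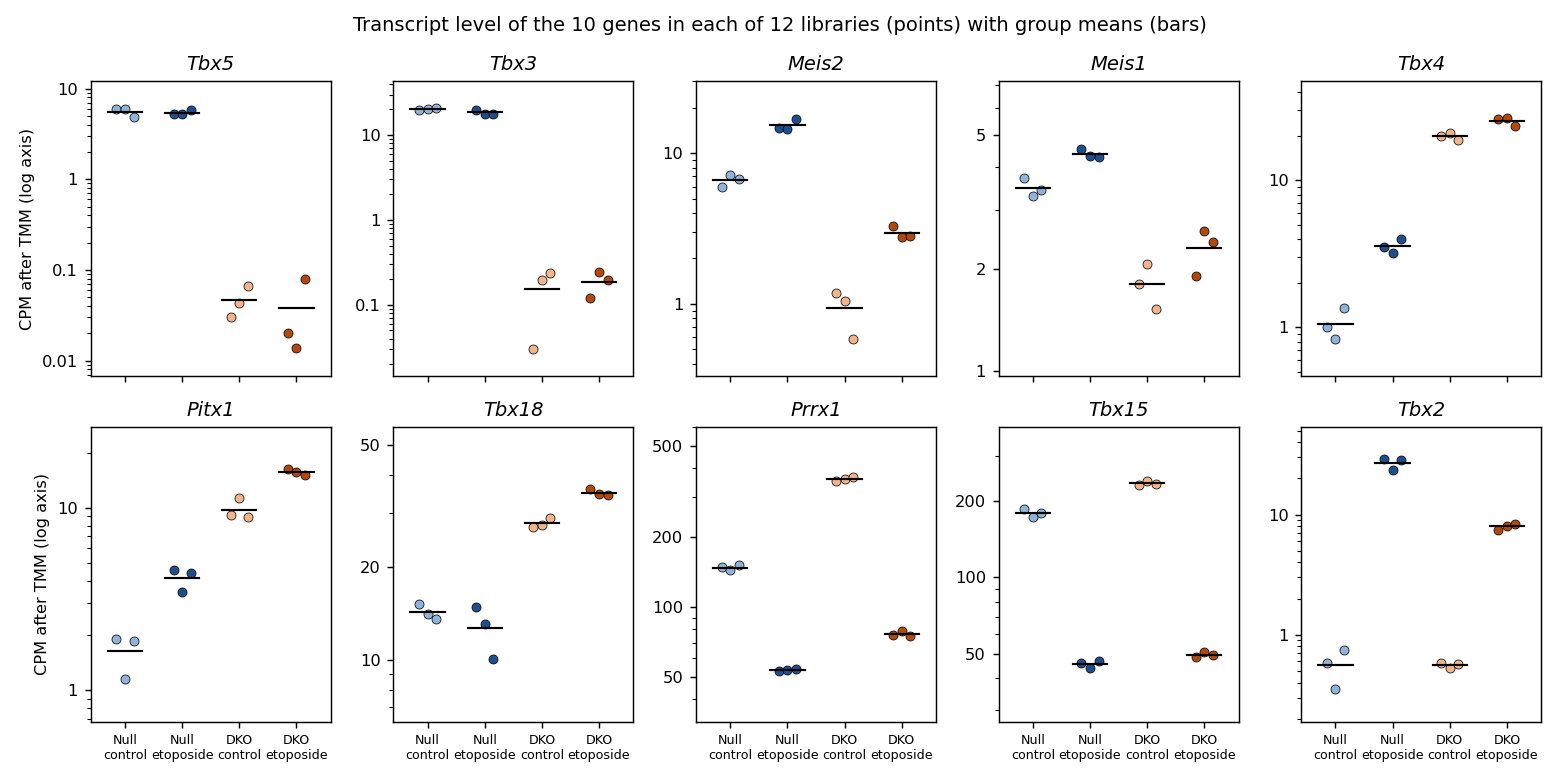
Level of each of the 10 genes in each library, in CPM after TMM scaling on a log axis (every panel has its own range), with points for the 3 libraries of a group and bars for the group mean. Tbx3 reaches at most 0.246 CPM and Tbx5 at most 0.0794 CPM in any DKO library, Tbx4 and Pitx1 are highest in DKO MEFs, and Tbx2 lies between 7.51 and 28.9 CPM in etoposide libraries and at or below 0.741 CPM in controls.

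Tbx5, the T-box factor of the forelimb bud and heart (GRCm38 chr5:119832668-119885219, + strand), was close to absent in the DKO line. Null control libraries held 5.91, 5.98 and 4.91 CPM (481, 389 and 318 counts), and DKO control libraries held 2, 4 and 4 counts, or 0.0301, 0.0435 and 0.0671 CPM. Etoposide libraries held 5.30, 5.21 and 5.82 CPM in Null MEFs and 1, 1 and 8 counts in DKO MEFs. The lowest Null library was therefore far above the highest DKO library under both conditions. Tbx5 was lower in DKO MEFs by a log2 difference of -6.88 ± 0.28 (SE) without etoposide (adjusted p = 1.20e-12) and of -6.88 ± 0.28 after it (adjusted p = 1.21e-12). Summed over libraries, the Null level was 123 times the DKO level in controls, with a 95% exact counting interval of 66.5 to 257, and 121 times after etoposide, with an interval of 65.6 to 253. These intervals cover counting error only.

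Etoposide did not measurably move Tbx5 in either genotype. The log2 change was -0.04 in Null MEFs (adjusted p = 0.804) with a 95% interval of -0.34 to 0.26, and -0.05 in DKO MEFs (adjusted p = 0.964) with an interval of -1.28 to 1.19, where the counts behind it were at most 8 per library.

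Tbx3, a T-box repressor of limb, mammary gland and heart development that lies next to Tbx5 on the same strand (chr5:119670669-119684724), followed the same division. Null control libraries held 19.8, 20.5 and 20.8 CPM and DKO control libraries 0.0301, 0.196 and 0.235 CPM, which were 2, 18 and 14 counts. Null MEFs held 19.8, 17.9 and 17.9 CPM after etoposide, and DKO MEFs held 0.121, 0.246 and 0.199 CPM. The highest DKO library, at 0.246 CPM, lay far below the lowest Null library, at 17.9 CPM. The log2 difference was -7.02 ± 0.20 without etoposide (adjusted p = 1.37e-14) and -6.55 ± 0.20 after it (adjusted p = 2.40e-14). In summed counts the Null level was 130.3 times the DKO level in controls (interval 93.1 to 188) and 94.3 times after etoposide (interval 70.1 to 129.9). The etoposide change of Tbx3 was -0.13 in Null MEFs (adjusted p = 0.294) and 0.33 in DKO MEFs (adjusted p = 0.459), neither past the threshold. The Tbx3 gene overlaps an annotated antisense RNA by 115 exonic bases, and the strand setting of the counting is not given in the sources used here.

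Tbx2, the repressor most closely related to Tbx3, was the gene of the 10 that etoposide moved most. It lies 44.5 kb upstream of Tbx4 (chr11:85832551-85841948, + strand). Control libraries held 0.578, 0.353 and 0.741 CPM in Null MEFs and 0.587, 0.533 and 0.570 CPM in DKO MEFs, ranges that overlapped. After etoposide, Null libraries rose to 28.9, 23.7 and 28.2 CPM and DKO libraries to 7.51, 8.11 and 8.33 CPM. Every etoposide library was above every control library, and every Null etoposide library was above every DKO etoposide library. The rise was 48.1-fold in Null MEFs (log2 5.59 ± 0.15, adjusted p = 3.61e-15) and 14.2-fold in DKO MEFs (log2 3.83 ± 0.16, adjusted p = 9.61e-13).

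The difference between the 2 rises of Tbx2 was itself past the threshold (log2 -1.76 ± 0.25, DKO minus Null, adjusted p = 1.51e-05). After etoposide, Tbx2 was lower in DKO than in Null MEFs by a log2 difference of -1.75 ± 0.11 (adjusted p = 3.38e-10), whereas the control difference was 0.0047 with a 95% interval of -0.43 to 0.44. The next counted gene on the other side, 2610027K06Rik, starts 0.328 kb away on the opposite strand. It had 2, 2 and 0 counts in Null control libraries, 0, 4 and 0 in DKO control libraries, 112, 107 and 101 in Null etoposide libraries and 6, 14 and 27 in DKO etoposide libraries. The summed muscle markers also rose in Null MEFs, from between 5.27 and 6.16 CPM in control libraries to between 45.4 and 49.0 CPM in etoposide libraries. Most of the sum after etoposide came from 2 genes, the intermediate filament gene Des at a mean of 36.3 CPM and Ryr1 at 7.23 CPM. In DKO MEFs, where Tbx2 also rose, the sum rose less, from 4.75 to 5.58 CPM in controls to 6.36 to 6.75 CPM after etoposide. Des and Ryr1 rose there too, from means of 0.386 to 2.44 CPM and of 0.0438 to 0.698 CPM. Tnnt2, the largest part of the DKO control sum, went down, from a mean of 4.59 to 3.37 CPM. The defining muscle factor Myf5 was at 0 in all 12 libraries, and Myod1 had at most 7 counts. The muscle factor Myog had 0 counts in all 6 control libraries, 25, 9 and 19 in Null etoposide libraries and 2, 0 and 1 in DKO etoposide libraries. The part of these markers in the rise of Tbx2 was not tested.

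Tbx4, the T-box factor of the hindlimb bud and lung mesenchyme (chr11:85886422-85916097, + strand), ran opposite to Tbx5. It was at 1.01, 0.830 and 1.34 CPM in Null control libraries and at 19.9, 21.1 and 18.8 CPM in DKO control libraries. Etoposide libraries held 3.49, 3.20 and 3.996 CPM in Null MEFs and 25.9, 26.5 and 23.3 CPM in DKO MEFs. The 4 groups did not overlap, and both DKO groups stood above both Null groups. Tbx4 was higher in DKO MEFs by 18.8-fold without etoposide (log2 4.24 ± 0.13, adjusted p = 2.20e-14) and by 7.10-fold after it (log2 2.83 ± 0.11, adjusted p = 4.54e-13). Etoposide raised it in Null MEFs by a log2 change of 1.75 ± 0.14 (adjusted p = 5.14e-09) and in DKO MEFs by 0.34 ± 0.09 (adjusted p = 0.00399). The difference of these rises, DKO minus Null, was -1.41 ± 0.17 (adjusted p = 2.48e-06).

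Promoter sequence was at hand for 5 of the 10 genes (Tbx4, Tbx18, Meis1, Meis2 and Prrx1) as windows of 300 bases from RefSeq on GRCm38.p6, 250 before and 50 after the annotated start. The 3 printed here belong to Tbx4, the gene most raised in DKO MEFs, to Meis2, the most lowered of the 5, and to Prrx1, which fell most of the 5 after etoposide. Capitals mark matches to the letters searched, in either orientation.
Tbx4 (chr11:85896515-85896814, + strand): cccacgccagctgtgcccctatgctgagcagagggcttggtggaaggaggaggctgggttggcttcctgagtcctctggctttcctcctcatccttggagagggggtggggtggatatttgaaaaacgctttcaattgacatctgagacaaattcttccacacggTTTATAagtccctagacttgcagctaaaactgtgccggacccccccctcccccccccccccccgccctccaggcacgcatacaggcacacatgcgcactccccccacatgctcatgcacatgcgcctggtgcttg
Meis2 (chr2:116064570-116064869, - strand): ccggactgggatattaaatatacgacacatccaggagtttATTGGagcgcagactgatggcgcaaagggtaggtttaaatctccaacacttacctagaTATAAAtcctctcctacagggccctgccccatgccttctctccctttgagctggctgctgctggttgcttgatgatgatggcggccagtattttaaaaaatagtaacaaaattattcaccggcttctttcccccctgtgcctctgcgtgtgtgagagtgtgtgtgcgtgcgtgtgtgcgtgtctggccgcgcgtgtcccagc
Prrx1 (chr1:163313601-163313900, - strand): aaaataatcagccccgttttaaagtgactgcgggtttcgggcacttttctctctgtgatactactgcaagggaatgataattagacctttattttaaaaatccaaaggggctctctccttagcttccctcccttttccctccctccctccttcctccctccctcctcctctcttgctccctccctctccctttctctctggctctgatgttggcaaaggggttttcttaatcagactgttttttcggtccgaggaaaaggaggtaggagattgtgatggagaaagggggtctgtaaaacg

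The E-box CACGTG, the core letters that TFEB and TFE3 are known to bind, occurred in none of the 5 windows and in 7.15% of all 32851 promoter windows. The T-box site AGGTGTGA was also in none of the 5 and in 1.28% of all windows. The MEIS letters TGACAG (19.2% of all windows) were found in Tbx18 alone. CCAAT (37.4% of all windows) was found in Tbx18, Meis1 and Meis2, and TATAAA (13.6%) in Tbx4 and Meis2, where the match in Tbx4 began 85 bases before the start, on the opposite strand. The Prrx1 window held none of these letters. The Tbx4 and Meis2 windows lie inside the genes as GENCODE annotates them, downstream of the first annotated base. A window without a match says only that these letters are not in it.

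Pitx1, the homeobox factor that specifies the hindlimb and activates Tbx4 there (chr13:55825051-55836192, - strand), was ordered across groups as Tbx4 was. Null control libraries held 1.90, 1.15 and 1.85 CPM and DKO control libraries 9.10, 11.4 and 8.91 CPM. After etoposide the values were 4.55, 3.45 and 4.39 CPM in Null MEFs and 16.3, 15.8 and 15.3 CPM in DKO MEFs. No groups overlapped. The DKO level was 5.97-fold higher without etoposide (log2 2.58 ± 0.16, adjusted p = 2.93e-10) and 3.83-fold higher after it (log2 1.94 ± 0.14, adjusted p = 2.27e-09). Etoposide raised Pitx1 by 1.32 ± 0.17 in Null MEFs (adjusted p = 1.52e-06) and by 0.68 ± 0.13 in DKO MEFs (adjusted p = 0.000244) on the log2 scale. The difference of these changes was -0.64 ± 0.21 (adjusted p = 0.0178). It was -0.45 (adjusted p = 0.0575) without replicate 2 of the Null control, the library with the lowest Pitx1 level. Exons of Pitx1 overlap those of 2 annotated RNAs, 1 on the opposite strand by 165 bases and 1 on the same strand.

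Expressed per kb of exon, the 2 limb T-box transcripts changed places between the lines. Tbx4 made up 20.8 ± 5.9% of the sum of Tbx4 and Tbx5 in Null control MEFs and 47.3 ± 1.4% in Null etoposide MEFs. In DKO MEFs it made up 99.8 ± 0.08% in controls and 99.9 ± 0.1% after etoposide. The shares of Tbx2 in the sum of Tbx2 and Tbx3 were 4.74 ± 1.6% and 87.4 ± 8.6% in Null and DKO controls, and 72.6 ± 1.7% and 98.7 ± 0.4% after etoposide. Both shares were higher in DKO than in Null MEFs under both conditions, with no overlap between libraries. The higher Tbx2 share goes with the near silence of Tbx3 in DKO MEFs and not with more Tbx2. Mean Tbx2 levels were 0.557 and 0.563 CPM in Null and DKO controls, and 27.0 and 7.98 CPM after etoposide.

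**Figure D2:**
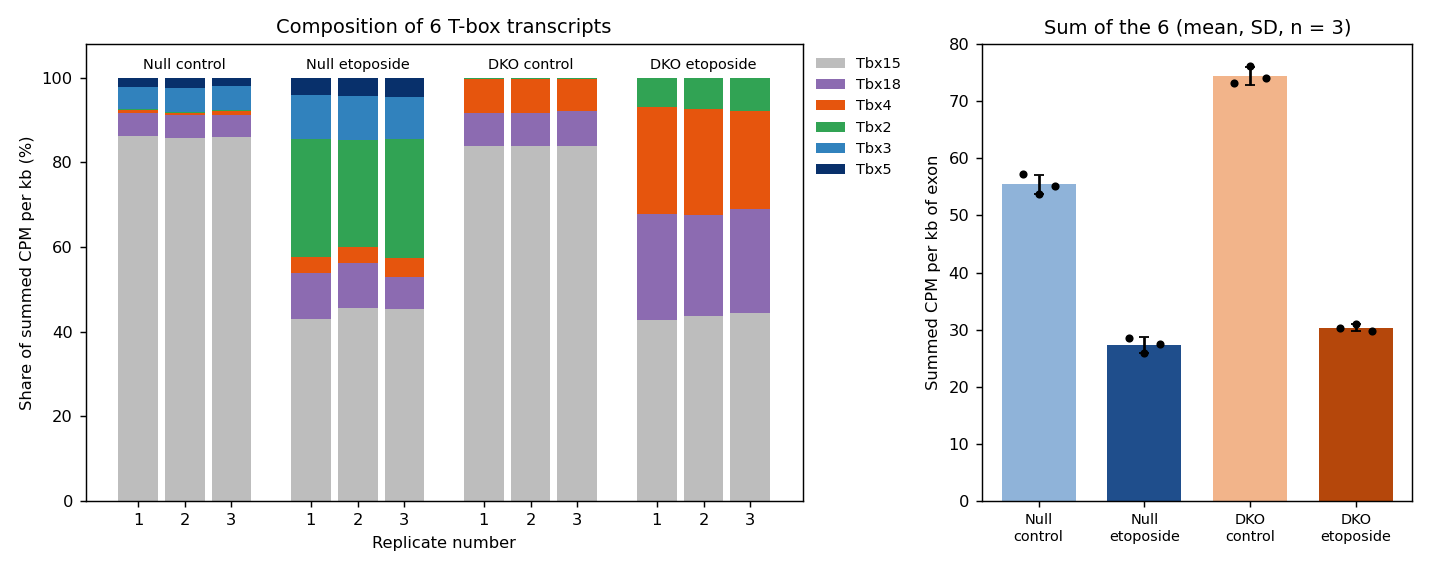
Left, share of each of the 6 T-box transcripts in their summed CPM per kb of exon (%), one bar per library. Right, that sum as mean and SD (n = 3) with the single libraries as points. Tbx15 makes up 86.0% and 83.9% in Null and DKO controls and is at most 45.5% in every etoposide library, where Tbx2 holds 27.2% of the Null sum and Tbx4 and Tbx18 each hold about 24.5% of the DKO sum.

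Tbx15, a T-box factor of trunk mesenchyme, skin and skeleton (chr3:99240381-99354259, + strand), had the highest level per kb among the 10 genes in all 4 groups. Libraries held 185, 173 and 178 CPM in Null controls and 230.0, 239.9 and 233 CPM in DKO controls. After etoposide they held 45.9, 44.1 and 46.6 CPM in Null MEFs and 48.6, 50.8 and 49.4 CPM in DKO MEFs. Every etoposide library lay far below every control library, and the 4 groups did not overlap. The fall was -1.97 ± 0.04 on the log2 scale in Null MEFs (adjusted p = 8.07e-17) and -2.24 ± 0.04 in DKO MEFs (adjusted p = 2.12e-17), with a difference, DKO minus Null, of -0.27 ± 0.05 (adjusted p = 0.000405). Against Null MEFs, DKO MEFs held slightly more Tbx15 without etoposide (log2 0.39 ± 0.04, adjusted p = 6.02e-08). The difference after etoposide was 0.12 ± 0.04 (adjusted p = 0.00775), a call that was lost with DESeq2's size factors (0.06, adjusted p = 0.136), with DESeq2 (adjusted p = 0.133) and with a stricter filter (adjusted p = 0.140). It was lost as well without replicate 2 of Null etoposide (0.09, adjusted p = 0.0623) or replicate 2 of DKO etoposide (0.09, adjusted p = 0.0735).

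Tbx18, a T-box factor of somites, ureter and outer heart mesenchyme (chr9:87702800-87731260, - strand), was higher in DKO MEFs. Null control libraries held 15.2, 14.1 and 13.6 CPM and DKO control libraries 27.1, 27.5 and 29.0 CPM. After etoposide, Null libraries held 14.8, 13.1 and 10.0 CPM and DKO libraries 35.9, 34.7 and 34.4 CPM. The Null groups overlapped each other and stayed below all DKO libraries. The DKO level was 1.95-fold higher in controls (log2 0.96 ± 0.09, adjusted p = 1.03e-07) and 2.76-fold higher after etoposide (log2 1.46 ± 0.09, adjusted p = 3.99e-10). Etoposide raised Tbx18 in DKO MEFs by 0.33 ± 0.09 (adjusted p = 0.00380), the change in Null MEFs was -0.18 (adjusted p = 0.108), and the difference of the changes was 0.50 ± 0.13 (adjusted p = 0.00402). The Null change passed the threshold without replicate 1 of Null etoposide (-0.31, adjusted p = 0.00518) and with no filter on low counts (-0.20, adjusted p = 0.0343). Tbx18 overlaps the exons of an antisense RNA by 970 bases. Nt5e, the next counted gene at 596 kb, moved in a like manner, with means of 9.89 and 19.2 CPM in Null and DKO controls and 10.3 and 28.0 CPM after etoposide.

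Prrx1, a homeobox factor of limb and head mesenchyme that is used as a fibroblast progenitor marker (chr1:163245119-163313710, - strand), had the second highest level per kb in both control groups. Null control libraries held 148, 144 and 152 CPM and DKO control libraries 352, 358 and 366 CPM. Etoposide libraries held 52.7, 53.2 and 54.1 CPM in Null MEFs and 75.3, 78.7 and 74.9 CPM in DKO MEFs. All 4 groups stood apart. Prrx1 was 2.42-fold higher in DKO controls (log2 1.28 ± 0.03, adjusted p = 6.31e-15) and 1.43-fold higher after etoposide (log2 0.52 ± 0.04, adjusted p = 7.81e-10). The etoposide fall was -1.47 ± 0.04 in Null MEFs (adjusted p = 8.03e-16) and -2.23 ± 0.04 in DKO MEFs (adjusted p = 9.95e-18), a difference of -0.76 ± 0.05 (adjusted p = 1.44e-09). The sum of the 12 fibroblast markers ran in the same order as Prrx1 and Tbx15. It was between 12345 and 13065 CPM in DKO controls, 7556 and 7733 CPM in Null controls, 5158 and 5513 CPM in DKO etoposide libraries and 3926 and 4073 CPM in Null etoposide libraries. Single markers did not all follow it. In DKO MEFs 11 were higher and 1 lower in controls, and 10 higher and 2 lower after etoposide, against 33.4% and 36.9% of all genes tested called higher. Vim was at 1632 CPM in Null and 801 CPM in DKO etoposide MEFs, and Thy1 was higher in Null MEFs under both conditions. The part of these markers in the levels of Prrx1 and Tbx15 was not tested.

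Meis2 and Meis1, TALE homeobox proteins that bind DNA together with PBX and HOX partners, were both lower in DKO MEFs. Meis2 (chr2:115863064-116065839, - strand) was at 5.92, 7.21 and 6.69 CPM in Null controls and 1.19, 1.04 and 0.587 CPM in DKO controls. After etoposide it was at 14.7, 14.4 and 17.0 CPM in Null MEFs and 3.30, 2.79 and 2.81 CPM in DKO MEFs. The groups did not overlap, and both genotypes rose. The log2 difference of DKO from Null was -2.79 ± 0.17 in controls (adjusted p = 2.35e-10) and -2.38 ± 0.15 after etoposide (adjusted p = 2.01e-10). Etoposide raised Meis2 by 1.22 ± 0.14 in Null MEFs (adjusted p = 3.67e-07) and by 1.62 ± 0.18 in DKO MEFs (adjusted p = 4.11e-07), and the difference of 0.40 between these was not past the threshold (adjusted p = 0.144, 95% interval -0.04 to 0.84).

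Meis1 (chr11:18879817-19018985, - strand) changed less. Control libraries held 3.71, 3.30 and 3.43 CPM in Null MEFs and 1.81, 2.08 and 1.53 CPM in DKO MEFs. Etoposide libraries held 4.55, 4.33 and 4.30 CPM in Null MEFs and 1.90, 2.59 and 2.41 CPM in DKO MEFs, which overlapped the DKO controls. The difference of DKO from Null was -0.94 ± 0.15 in controls (adjusted p = 2.77e-05) and -0.92 ± 0.14 after etoposide (adjusted p = 2.13e-05). The etoposide changes of 0.34 ± 0.14 in Null MEFs (adjusted p = 0.0375) and 0.35 ± 0.15 in DKO MEFs (adjusted p = 0.0438) lay just past the threshold, and each was lost in 8 of 14 alternative fits. Leaving out 1 library ended the Null call for 5 of the 6 libraries, all but Null control replicate 1, with log2 changes of 0.29 to 0.38 over the 6. It ended the DKO call for 4 of the 6, all but DKO control replicate 2 and DKO etoposide replicate 1, with log2 changes of 0.25 to 0.45. Per kb, Meis1 made up 37.7 ± 3.7% of the sum of Meis1 and Meis2 in Null controls, 69.3 ± 5.7% in DKO controls, 24.7 ± 2.0% in Null etoposide MEFs and 47.0 ± 6.3% in DKO etoposide MEFs. Exons of Meis1 overlap those of 2 annotated RNAs, 1 of them on the same strand over 1029 bases.

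Etoposide changed 7 of the 10 genes in Null MEFs, 5 higher (Tbx2, Tbx4, Pitx1, Meis2 and Meis1) and 2 lower (Tbx15 and Prrx1), against 78.4% of all genes tested, with 41.7% higher and 36.8% lower. In DKO MEFs it changed 8, with Tbx18 added to those 5 among the higher and the same 2 lower, against 75.3% of all genes tested, with 44% higher and 31.3% lower. The genes that fell were the most abundant per kb in controls. The median log2 change of the 10 was 0.15 in Null and 0.34 in DKO MEFs, beside 0.07 and 0.14 over all genes tested. The size of the etoposide change differed between genotypes for 6 of the 10, namely Tbx18 in the positive and Tbx2, Tbx4, Pitx1, Prrx1 and Tbx15 in the negative direction, against 54.6% of all genes tested, with 29.9% in the positive and 24.7% in the negative direction. The median of these differences was -0.13 for the 10 genes and 0.05 over all genes tested. The 5 genes that rose in Null MEFs span 9.40 kb (Tbx2) to 203 kb (Meis2) of the genome, and the 2 that fell span 68.6 kb (Prrx1) and 114 kb (Tbx15).

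**Figure D3:**
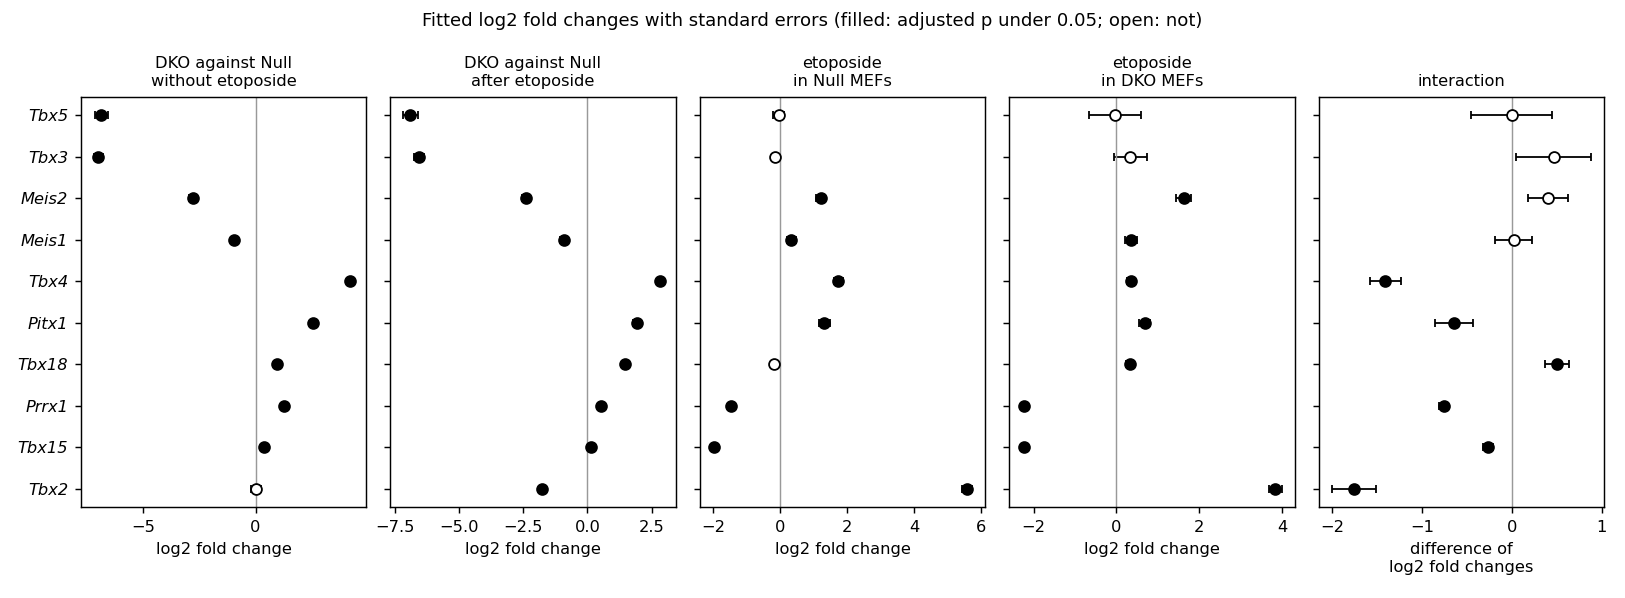
Fitted log2 fold change of each of the 10 genes in the 5 comparisons, with bars for the SE, filled points for an adjusted p under 0.05 and open points for the others (each panel has its own range). In DKO against Null MEFs the points run from -7.02 (Tbx3) to 4.24 (Tbx4), and the largest etoposide change is that of Tbx2, at 5.59 in Null and 3.83 in DKO MEFs.

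Levels of the nearest counted genes on the chromosome were set beside those of the 10. Brip1, which lies 142 kb beyond Tbx4 and encodes a DNA repair helicase, differed less than Tbx4 did, with means of 41.9 CPM in Null and 40.2 CPM in DKO controls (log2 -0.06, adjusted p = 0.237). Tbx3os2, an antisense RNA 0.371 kb beyond Tbx3, had 0 counts in all 6 control libraries, 9, 8 and 13 in Null etoposide libraries and 0, 2 and 1 in DKO etoposide libraries. H2afy beside Pitx1 and BC052040 beside Meis2 differed little between control groups, with log2 differences of -0.13 (adjusted p = 0.00306) and 0.08 (adjusted p = 0.493). Gorab beside Prrx1 was higher in DKO controls by 0.54 (adjusted p = 3.48e-07), and Cep162 on the other side of Tbx18 from Nt5e by 0.28 (adjusted p = 0.000208). The genes on either side of Meis1 had 0 counts in every library.

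For each gene, the nearest patterns over the 12 libraries were sought among 11998 genes of at least 1 CPM by the root mean square difference (RMS) of centred log2 CPM. The libraries form 4 groups, so these likenesses describe group means above all, and Pearson's r is given as a description. Prrx1 lay closest to Sertad4 (RMS 0.072, r = 0.998) and Zfp827 (RMS 0.075), and Tbx15 to Vcl, the gene for the adhesion protein vinculin (RMS 0.084, r = 0.998), and Zswim6. Tbx18 lay closest to Kdm5d and Tgfbrap1, Meis1 to Snord17 and Spg20, and Meis2 to Vdr, the vitamin D receptor (RMS 0.182, r = 0.997), and Itgb7. Wider distances were those of Tbx5 to Cd1d1 (RMS 0.440) and Dfna5 and of Tbx3 to Rhbdf2 (RMS 0.394) and Chic1. Tbx4 lay closest to Pgbd5 and the collagen gene Col10a1, Pitx1 to Zfp937 and Cxcl16, and Tbx2 to Col9a3 (RMS 0.396, r = 0.993) and Wnt9a, which had a mean of 3.53 CPM in Null controls and 112 CPM after etoposide.

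Other T-box genes were scarce. Of 11 further T-box genes, 6 passed the filter, and only Mga, which joins a T-box to a MAX-binding domain, had a group mean of at least 1 CPM, with means of 174 and 167 CPM in Null and DKO controls and 103 and 151 CPM after etoposide. Mga fell by 0.76 on the log2 scale in Null MEFs (adjusted p = 2.30e-10). The other 5 (Tbx6, Tbx10, Tbx20, Tbx21 and Eomes), named here after their values were seen, had at most 25 counts per control library. All were called higher after etoposide in both genotypes, beside 41.7% of all genes tested in Null and 44% in DKO MEFs. Genes so low in controls can pass the filter through their etoposide libraries, which favours such a call, so these shares are no fair measure for them. Tbx10 in DKO MEFs rested on 0, 0 and 1 counts in controls and 6, 0 and 6 after etoposide (adjusted p = 0.0414). Tbx20 went from 0 counts in all 6 control libraries to 49, 39 and 50 in Null and 7, 32 and 26 in DKO etoposide libraries.

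All 9 genes for TALE partners of the MEIS proteins passed the filter and differed between control groups, 3 higher and 6 lower in DKO MEFs, against 67.4% of all genes tested (33.4% higher and 34.1% lower), with a median log2 difference of -0.57 beside -0.02 over all genes tested. Meis3 was lower (log2 -1.72, adjusted p = 1.29e-11), as were Pbx3 and Pbx4, while Pknox2 (2.27, adjusted p = 4.42e-11) was higher. After etoposide 4 were higher and 5 lower, against 36.9% and 35.2% of all genes tested. Etoposide raised 1 of the 9 and lowered 6 in Null MEFs, against 41.7% and 36.8% of all genes tested, and raised 3 and lowered 5 in DKO MEFs, against 44% and 31.3%. The same shares of all genes tested apply to the counts of the lists that follow. Pknox2, a TALE homeobox gene, fell in Null MEFs (log2 -0.76, adjusted p = 8.50e-05) and from a mean of 9.48 to 2.56 CPM in DKO MEFs (log2 -1.89, adjusted p = 2.96e-10).

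Among 14 paired and related homeobox genes, 8 passed the filter. Between control groups 3 were higher and 3 lower in DKO MEFs, with a median log2 difference of -0.35, or 0 with the 3 genes that had a group at or under 3 counts per library set to their bound. Msx1, a homeobox gene of the distal limb mesenchyme, was higher (4.06 against 27.1 CPM, log2 2.74, adjusted p = 2.07e-13), as was Msx2 (2.93, adjusted p = 8.17e-10). Shox2, a homeobox gene of the proximal limb, was lower (72.1 against 12.7 CPM, log2 -2.50, adjusted p = 7.01e-16), and Prrx2, the paralogue of Prrx1, was lower too (-0.70, adjusted p = 3.99e-09), opposite to Prrx1. In the etoposide comparisons 5 of these 8 were higher and 2 lower in Null MEFs, and 3 higher and 2 lower in DKO MEFs. Of the 8, 3 in the Null and 2 in the DKO comparison had a group at or under 3 counts per library.

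Of 30 other positional factors 21 passed the filter, and between control groups 9 were higher and 10 lower in DKO MEFs, with a median log2 difference of -0.09. Hand2, a posterior limb and heart factor, was nearly silent in DKO MEFs, as Tbx3 and Tbx5 were, with 1598, 1201 and 1181 counts in Null controls and 0, 3 and 11 in DKO controls. Gli2, a transcription factor of Hedgehog signalling, had 399, 420 and 352 counts against 0, 5 and 9. Foxd1 was lower (47.8 against 2.79 CPM, log2 -4.08, adjusted p = 3.30e-16), while the LIM-homeobox genes Lhx9 (3.98, adjusted p = 3.81e-17) and Lmx1b (3.57, adjusted p = 2.23e-08) were higher. After etoposide 8 were higher and 9 lower, with Sall1 among the higher (2.63, adjusted p = 2.17e-13). Etoposide raised 8 and lowered 11 in Null MEFs and raised 6 and lowered 12 in DKO MEFs. Osr2 (log2 2.01, adjusted p = 2.17e-09) and Irx5 (1.77, adjusted p = 1.24e-12) rose in Null MEFs, and Foxd1 rose (1.68, adjusted p = 4.84e-11) and Lhx9 fell (-1.57, adjusted p = 4.45e-13) in DKO MEFs. Gli3 fell by 1.89 and 1.81, Twist2 by 1.89 and 1.47, and Osr1 by 1.73 and 1.51 log2 units in Null and DKO MEFs.

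Limb signals were tested for 17 of 19 genes, and between control groups 8 were higher and 2 lower in DKO MEFs, with a median log2 difference of 0.50 beside -0.02 over all genes tested. Fgf10, the mesenchymal growth factor that Tbx4 and Tbx5 are known to activate in limb buds, was at 1.66, 1.69 and 2.33 CPM in Null controls and 31.8, 31.04 and 32.4 CPM in DKO controls (log2 4.07, adjusted p = 5.76e-15). After etoposide its means were 1.54 and 8.58 CPM (log2 2.49, adjusted p = 4.73e-12). Bmp2 was higher as well (3.33, adjusted p = 3.68e-10), and Gdf5, a joint morphogen, went from 0, 0 and 1 counts to 187, 256 and 148. Nog, which encodes the BMP antagonist noggin, had 216, 182 and 185 counts against 9, 2 and 2, and Wnt5a had 130, 91 and 146 counts against 2, 2 and 0. After etoposide 6 were higher and 8 lower in DKO than in Null MEFs. Etoposide raised 7 and lowered 8 in Null MEFs, and raised 6 and lowered 10 in DKO MEFs. Fgf18 rose from a mean of 0.126 to 16.4 CPM in Null MEFs and from 0.141 to 4.67 CPM in DKO MEFs. Wnt3 had at most 5 counts in any control library, 661, 701 and 604 in Null etoposide libraries and 5, 17 and 34 in DKO etoposide libraries.

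Among 13 genes known as targets of T-box factors, 11 passed the filter. Cdkn2a, which encodes p16 and p19ARF and is known to be repressed by TBX2 and TBX3, was at 154 and 92.0 CPM in Null and DKO controls (log2 -0.74, adjusted p = 2.12e-10) and at 109.8 and 58.8 CPM after etoposide (-0.90, adjusted p = 1.72e-11). Cdkn2a was thus lower in the line with the lower Tbx3. Its mean also fell with etoposide in both lines (log2 -0.49 in Null MEFs, adjusted p = 2.84e-08), where Tbx2 rose. Cdkn1a, which encodes the cell cycle inhibitor p21 and is a target of p53 as well as of TBX2, rose with etoposide in both lines, from 65.7 to 506 CPM in Null MEFs (2.94, adjusted p = 7.86e-17) and from 39.7 to 241 CPM in DKO MEFs (2.60, adjusted p = 3.16e-16), alongside Tbx2. The part of Tbx2 and Tbx3 in the levels of Cdkn2a and Cdkn1a was not tested. Nppb, Gja1 and Gja5, cardiac targets of T-box factors, were higher in DKO controls by log2 differences of 3.78, 1.11 and 3.63. Over the list, 6 were higher and 2 lower in DKO controls, with a median log2 difference of 0.62, and 3 higher and 4 lower after etoposide. Etoposide raised 3 and lowered 5 in Null MEFs, against 41.7% and 36.8% of all genes tested, and raised 3 and lowered 8 in DKO MEFs, against 44% and 31.3%. The etoposide change was more negative in DKO than in Null MEFs for 7 of the 11, against 24.7% of all genes tested.

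**Figure D4:**
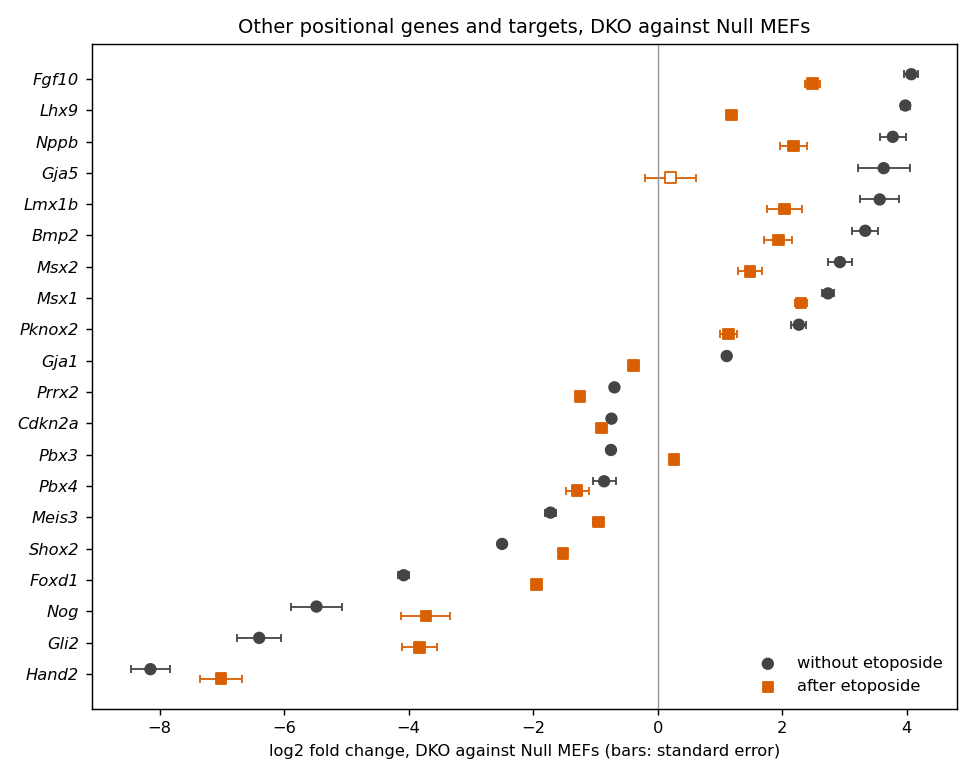
Fitted log2 difference of DKO from Null MEFs for 20 other positional genes and T-box targets without etoposide (circles) and after etoposide (squares), with bars for the SE and an open symbol where the adjusted p was not under 0.05. The genes drawn come from those of each list with the largest absolute log2 difference without etoposide. Genes with a group at or under 3 counts in each library, such as Gdf5 and Wnt5a, are not drawn. Among the 20 drawn, Hand2 lies lowest, at -8.15 without etoposide and -7.01 after it, and Fgf10 highest, at 4.07 and 2.49.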

How the data were processed

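Total RNA of 12 MEF libraries was depleted of ribosomal RNA and sequenced as stranded read pairs. The authors aligned pairs to the mouse genome (mm10) with HISAT2 and deposited 1 table of raw read counts per gene. The study's methods name HTSeq as the counter and the submitters' processing notes name featureCounts, and versions and the strand setting are not given in the sources used here. The 5 summary lines of the table were left out, which kept 53.4 to 63.1% of each column on genes. Groups came from the sample titles.

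The deposited counts were scaled by TMM (factors 0.884 to 1.09), genes with low counts were removed with edgeR's default filter (15220 of 24421 kept), and 1 model over the 4 groups was fitted with edgeR's quasi-likelihood test (edgeR 4.0.16, R 4.3.3), with Benjamini-Hochberg adjustment over all genes tested and a threshold of 0.05. The 5 comparisons were etoposide against control in each genotype, DKO against Null under each condition, and their interaction. Replicates differed by 10.7 to 22.0 chi-square units per degree of freedom, more than counting noise. An exact permutation test of 3 against 3 libraries cannot go below p = 0.1 and was not used. Alternatives were other scalings, DESeq2 1.42.0, limma 3.58.1, other filters, a replicate block, only the libraries compared, and leaving out each library. The procedure was tested on simulated data.

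The 10 genes, gene lists and tests were chosen with earlier results of these data known. Beyond the 10, the text names Tfeb and Tfe3, Cdkn1a, Cdkn2a and Fgf10, the nearest counted neighbours, the 2 genes most alike in pattern, and up to 5 genes per list and comparison with the largest absolute log2 change past the threshold and at least 1 CPM. Gene coordinates and exon lengths came from GENCODE M21 (GRCm38), which matched 23350 symbols. Some genes that this rule selects are not reported here.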

Additional observations from a re-analysis of the deposited data

Results flagged for a closer look

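For 6 of the 10 genes the etoposide response differed between the genotypes by the interaction term of edgeR's quasi-likelihood test. The log2 difference, DKO minus Null, was -1.76 for Tbx2, which rose 48.1-fold in Null and 14.2-fold in DKO MEFs. It was -1.41 for Tbx4 and -0.64 for Pitx1, the 2 hindlimb genes, which both rose more steeply from their lower Null level. It was -0.76 for Prrx1 and -0.27 for Tbx15, which both fell further in DKO MEFs from a higher control level. Tbx18 differed in the other direction, by 0.50. Across all genes tested 54.6% passed the same test, a share near that of the 10 genes.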

How the results depend on the processing

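The number of the 10 genes called stayed within 1.5 times its value in all 75 alternatives, and leaving out 1 library gave 6 to 7 genes for etoposide in Null MEFs, 7 to 8 in DKO MEFs, 9 for DKO against Null without etoposide, 9 to 10 after it and 5 to 6 for the interaction. Of the alternatives for single genes, 695 kept direction and call, 22 lost a call, 2 gained one and 30 changed sign, all of them for differences that were not past the threshold. Sign changes of Tbx5 after etoposide were 0.0022 with DESeq2's size factors, 0.0020 with DESeq2, 0.12 with library size alone and 0.042 with the stricter filter in Null MEFs, 0.22 with library size alone in DKO MEFs and 0.092 with library size alone for the interaction. Tbx3 in Null MEFs gave 0.033 with library size alone. Tbx2 in DKO against Null controls gave -0.12 with library size alone, -0.0029 with no filter and -0.0095 with the stricter filter. The Meis1 interaction gave -0.0436 with DESeq2's size factors, -0.0431 with DESeq2 and -0.031 with the stricter filter. Leaving out 1 library gave ranges of -0.081 to 0.12 for the Meis1 interaction, -1.36 to 0.39 for the Tbx5 interaction, -1.41 to 0.34 for Tbx5 and -0.13 to 0.64 for Tbx3 after etoposide in DKO MEFs, and -0.22 to 0.23 for Tbx2 in DKO against Null controls. Scaling by library size alone moved the median of all genes by 0.17 and 0.27 for etoposide in Null and DKO MEFs.

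Replicate numbers gave no sign of pairing the samples. Between same-numbered libraries, the deviations of log2 CPM from the group mean correlated at -0.032 to 0.043. Such low values over all genes tested, many with few counts, do not exclude a pairing. With the replicate number as a block, the etoposide changes of Meis1 were 0.33 in Null MEFs (adjusted p = 0.0513) and 0.36 in DKO MEFs (adjusted p = 0.0548), no longer past the threshold, and no other call of the 10 genes changed. Depth limits Tbx5 and Tbx3 in DKO MEFs, where 1 to 20 counts per library stand behind each level.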
